A study of Mus musculus with 10 samples.

Results

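The angiopoietin and Tie receptor system was examined through 7 genes chosen by symbol: the ligand genes Angpt1 and Angpt2, the receptor genes Tek and Tie1, the phosphatase gene Ptprb, the matrix protein gene Svep1 and the angiopoietin-like gene Angptl4. Of these, 6 had a row among the 16251 genes of the deposited table. The samples were cultured primary lymphatic endothelial cells (LECs) of the mouse, which form the inner lining of lymphatic vessels. The genotype of 5 libraries was labelled siRNA and their titles Vegfr2 siRNA, meaning that 50 nM of small interfering RNA against Vegfr2, the VEGF receptor encoded by Kdr, had been transfected. The other 5 libraries were labelled Control. All 10 were taken 48 h into the experiment and carry the treatment tag siRNA knockdown, so the labels leave unsaid what the controls received. Strain, age, the number of animals behind the cells and whether replicates were separate cultures are not given either, so that p-values here reflect only how far the sequenced samples scatter, and that scatter may be technical.

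Angiopoietins are secreted proteins that bind Tie2, the receptor tyrosine kinase encoded by Tek, on endothelial cells. Angpt1 comes mainly from the cells around vessels and activates Tie2, whereas Angpt2 comes from the endothelium itself and activates or blocks Tie2 depending on its surroundings. Tie1 binds no angiopoietin with high affinity but pairs with Tie2 and alters its signal, and VE-PTP, the product of Ptprb, removes phosphate from Tie2. The system is needed for the growth and remodelling of lymphatic vessels, in which Angpt2 is required.

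Estimated reads assigned to genes numbered 17946483 to 18239260 per library, and levels are given as CPM, a gene's count relative to the library size after TMM scaling. Kdr, the target, averaged 1323 ± 66.3 CPM without and 186 ± 14.8 CPM with the knockdown (SD, n = 5 each), which leaves 14.0% of its control level. All 8 lymphatic endothelial markers looked for were present, with a summed level of 16390 to 17949 CPM in control and 11078 to 12030 CPM in siRNA libraries. Of these markers 7 fell and 1 rose (median log2 fold change −0.62). Of 8 pan-endothelial markers 6 fell and 1 rose (median −0.37, summed level 5880 to 6028 and 4274 to 4436 CPM). Kdr, the siRNA's target, is 1 of these 6, so its fall and its share of the lower sum come with the knockdown itself. Blood endothelial markers summed to 539.5 to 571 and 358 to 378 CPM, with 2 lower and 1 higher of 6 tested. Of 8 myeloid markers 4 had a row, and these summed to 125 to 146 and 94.4 to 106 CPM. Nearly all of that was Cd14 (mean 92.3 and 65.8 CPM) and Cd68 (44.7 and 34.0 CPM), the tested ones, which both fell. Csf1r had 6 reads in the control and 0 in the siRNA group, and Itgam 1 read in each. Ptprc, Adgre1, Lyz2 and Tyrobp had no row. The part of these marker shifts in the values of the angiopoietin and Tie genes was not tested. The comparison reached most of the transcriptome, with 71.3% of 12161 tested genes changed (adjusted p under 0.05), 36.1% upward and 35.2% downward, and libraries of the groups that did not overlap for 57.0%. A call alone is therefore close to the background here, and the size and direction of each change carry the description.

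Angpt2 rose strongly and Tie1 fell most clearly among the receptors, with smaller falls of Tek and Ptprb. Of the 6 genes with a row, Angpt2 and Angptl4 rose, Tie1, Ptprb and Tek fell, and Angpt1 was under the filter on low counts. Angptl4 passed that filter through the siRNA libraries alone, so that its call could only have been a rise. The plot of each gene's CPM by library shows the groups apart for the 5 tested genes.

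**Figure D1:**
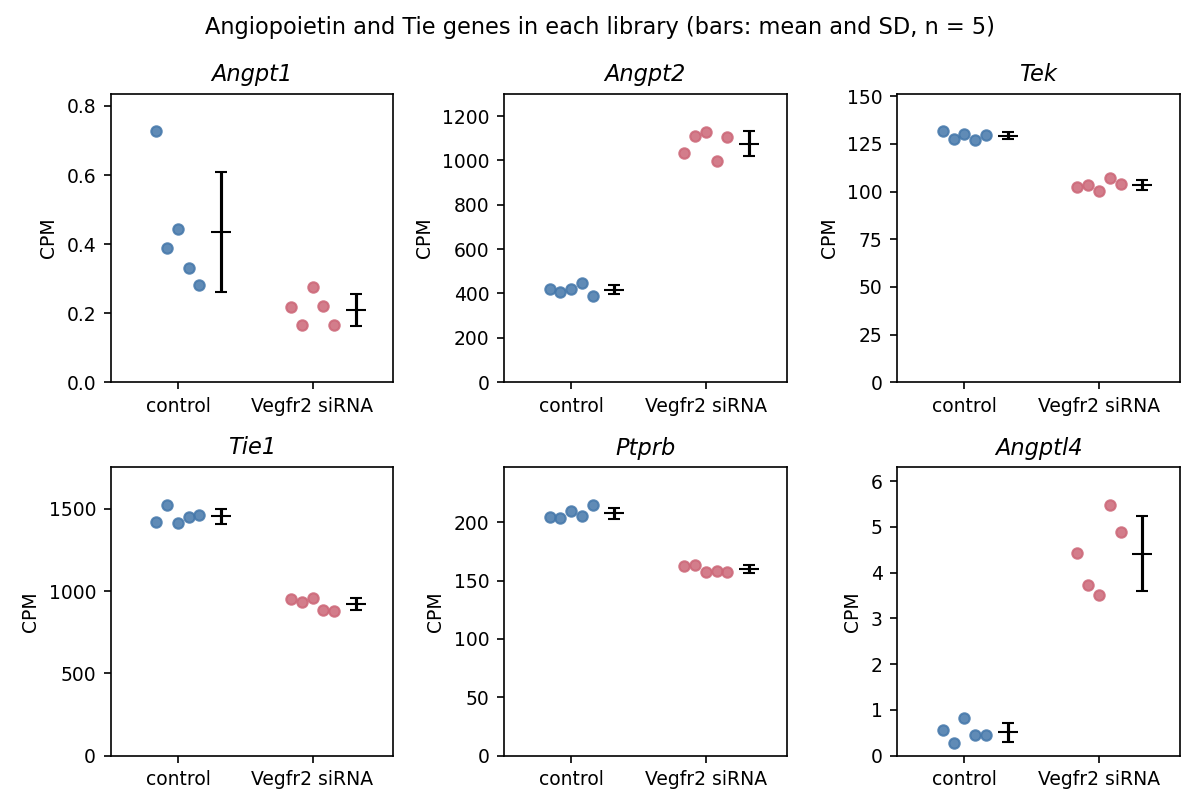
CPM (TMM-scaled) of the 6 genes with a row, 1 point per library in control (blue) and Vegfr2 siRNA (red) cells, with the mean and SD of 5 libraries in black and each axis starting at 0. Angpt2 lies between 390 and 446 CPM in control and between 997 and 1130 CPM in siRNA libraries, while Tie1, Tek and Ptprb lie lower in every siRNA library than in any control library.

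Angpt2, the endothelium's own Tie2 ligand (Entrez gene 11601, GRCm38.p6 chromosome 8, 18690263 to 18741562, minus strand), was at 420, 406, 421, 446 and 389.8 CPM in control libraries 1 to 5. In siRNA libraries 1 to 5 it was at 1035, 1111, 1130, 997 and 1105 CPM. The lowest siRNA library thus stood far above the highest control library. The means were 417 ± 21.0 and 1075 ± 56.6 CPM (SD, n = 5 each), a 2.58-fold rise. Its log2 fold change was 1.37 (SE 0.040, edgeR adjusted p = 1.70e-13), and 126 of the tested genes had a larger one. By exact two-sided permutation of the libraries, p was 0.00794, and 5 against 5 libraries allow no smaller value. The same smallest value was obtained for Tek, Tie1 and Ptprb.

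Angpt1, the agonist ligand made by mural and mesenchymal cells (Entrez gene 11600, chromosome 15, 42424667 to 42676977, minus strand), was barely detected. Its estimated reads numbered 13, 7, 8, 6 and 5 in the control and 4, 3, 5, 4 and 3 in the siRNA libraries. The groups met at 5 reads, and on the CPM scale the lowest control library (0.280) lay just above the highest siRNA library (0.274). In sum these were 39 against 19 reads, and at equal library size control cells had 2.08 times the reads of siRNA cells (95% exact interval 1.17 to 3.82, which covers counting error only). Angpt1 was left untested by the filter; with every gene of at least 1 read kept, its log2 fold change was −1.03 and it passed (edgeR adjusted p = 0.0256). Of its exon bases, 14.2% are shared with the annotated locus Gm17473, and no strand setting is stated, so part of these few reads may belong there. Markers of mural cells and fibroblasts, looked for because such cells make Angpt1, summed to 13.9 to 18.6 CPM in control and 13.9 to 16.6 CPM in siRNA libraries. All 12 had a row, and 5 were tested. Acta2 was higher (0.62 on the log2 scale), Pdgfrb (−0.41) and Notch3 (−0.57) were lower, and Cspg4 and Tagln did not pass. Over all tested genes 36.1% were higher and 35.2% lower. Of the untested markers, Rgs5 and Lum had no read in control libraries and 1 read each in the siRNA group. Pdgfra had 5 reads in all control and 45 in all siRNA libraries, and Col1a1 24 and 27. Reads were fewer in siRNA libraries for Dcn (22 and 11), Col1a2 (39 and 34) and Des (4 and 1). The part of such cells in the Angpt1 reads was not tested. In bulk RNA, fewer cells of a type and less RNA per cell cannot be told apart.

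Tek, the gene of the angiopoietin receptor Tie2 (Entrez gene 21687, chromosome 4, 94739086 to 94874976, plus strand), was at 132, 127, 130.4, 127 and 129.8 CPM in control libraries 1 to 5. It was at 102, 103, 100.4, 107 and 104 CPM in siRNA libraries 1 to 5. The highest siRNA library lay below the lowest control library, and no library stood out from its group. The means of 129 ± 1.95 and 103 ± 2.41 CPM (SD, n = 5 each) amount to a loss of 20.03%. This is −0.32 on the log2 scale (SE 0.027, adjusted p = 4.17e-14). Among the tested genes 65.4% changed by less in size, so that the fall was clear of the replicate spread but of ordinary size in this comparison.

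Tie1, the partner receptor of Tie2 (Entrez gene 21846, chromosome 4, 118471191 to 118489849, minus strand), was at 1422, 1526, 1413, 1450.3 and 1463 CPM in control libraries 1 to 5. In siRNA libraries 1 to 5 it was at 954, 933, 961, 884 and 880.3 CPM. All siRNA libraries lay below all control libraries by a wide gap. Means fell from 1455 ± 44.6 to 922 ± 38.1 CPM (SD, n = 5 each), a loss of 36.6%. Its change of −0.66 on the log2 scale had an SE of 0.026 (adjusted p = 5.47e-24), and 88.2% of tested genes changed by less in size.

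The promoters of both receptor genes are shown because the genes fell together and ETS factors, which bind the core GGAA, are known regulators of both. Each run is from RefSeq (GRCm38.p6) and covers 250 bases before and 50 bases after an annotated start, on the gene's own strand, with GGAA or its reverse TTCC in capitals. The Tie1 start is the gene's outer end, whereas the Tek start lies 203 bases inside the outer end of the RefSeq gene, so that much of the Tek window is within the annotated gene.
Tek, chr4:94739039-94739338, plus strand: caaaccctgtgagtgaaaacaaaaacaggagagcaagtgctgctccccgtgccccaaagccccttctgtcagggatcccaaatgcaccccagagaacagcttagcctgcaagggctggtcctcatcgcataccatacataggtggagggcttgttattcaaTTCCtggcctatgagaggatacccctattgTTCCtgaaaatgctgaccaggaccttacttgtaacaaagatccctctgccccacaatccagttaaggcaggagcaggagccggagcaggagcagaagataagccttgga
Tie1, chr4:118489800-118490099, minus strand: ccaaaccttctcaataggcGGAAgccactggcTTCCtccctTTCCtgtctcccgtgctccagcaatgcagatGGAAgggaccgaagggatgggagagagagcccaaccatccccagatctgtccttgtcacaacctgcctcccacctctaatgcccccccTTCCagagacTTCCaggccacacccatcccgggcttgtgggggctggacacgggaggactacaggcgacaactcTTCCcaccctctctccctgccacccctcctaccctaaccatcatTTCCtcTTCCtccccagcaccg
The Tie1 window holds 9 copies of the core on both strands together and the Tek window 2. At least 9 copies are found in 1.6% of the 32851 RefSeq promoter windows of this length, whereas at least 2 are found in 84.6%, and the median window has 3. The GATA word AGATAA or its reverse TTATCT occurs 1 time in the Tek window, 0 times in the Tie1 window and at least 1 time in 11.2% of all windows. The forkhead word GTAAACA or its reverse TGTTTAC is in neither window and in 3.6% of all windows. None of these words overlaps another here. These are matches of letters and no measure of binding. The part of ETS factors in the falls of Tek and Tie1 was not tested.

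Ptprb, the gene of the phosphatase VE-PTP (Entrez gene 19263, chromosome 10, 116275502 to 116389538, plus strand), was at 204, 203, 209.95, 206 and 215 CPM in control libraries 1 to 5. In siRNA libraries 1 to 5 it was at 163, 164, 157, 158 and 157 CPM. As with Tek, the groups were narrow and apart. The means were 208 ± 4.87 and 159.9 ± 3.07 CPM (SD, n = 5 each), which is 77.0% of control. On the log2 scale it fell by 0.38 (SE 0.025, adjusted p = 2.90e-17).

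Tie1 and Ptprb also share a 7-base word in annotated 3' untranslated sequence, GTAAAGA, which was picked from these data for its tie to lower fold changes and has the length of a small interfering RNA's seed match. The sites are shown with the word in capitals, from GENCODE M21 transcripts on the gene's strand.
Tie1: aattgtgactcGTAAAGAacagggccatt
Ptprb: gcattcgctaaGTAAAGAcattgttggtg
The Tie1 transcript that holds the site has a coding sequence of 1941 bases, against 3402 bases in the Tie1 transcript with the longest one, and the latter lacks the word in its 3' untranslated part. For Ptprb the transcript with the longest coding sequence, of 6855 bases, also lacks the word, but its annotated 3' untranslated part has only 131 bases. The Ptprb transcript that holds the site has 5994 coding bases and a 3' untranslated part of 5660 bases. In Tie1 that part has 2240 bases in the transcript that holds the site and 330 in the other. Of 11915 tested genes with an annotated 3' untranslated region, 14.7% carry the word there in some transcript, with a median log2 fold change of −0.12 against 0.02 for genes without it. Counted only in the transcript with the longest coding sequence, where Tie1 and Ptprb are without it, the word is in 10.2% (median −0.16 against 0.01). Tek, Angpt1, Angpt2 and Angptl4 carry none. The medians above come from the same data by which the word was chosen, so they do not test its effect. The sequence of the siRNA is not given in the sources used here, and the part of this word in the falls of Tie1 and Ptprb was not tested.

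Svep1, whose product is a large matrix protein that binds Tie1 and is needed for lymphatic remodelling, had no entry under this symbol and is not analysed here. Pear1 and Itga9, genes of 2 cell surface proteins known to bind it, were both measured. Itga9, an integrin subunit of lymphatic valves, fell from 65.9 ± 2.92 to 31.3 ± 2.17 CPM. Pear1, chosen with its values in view, was at 360 ± 9.22 and 379 ± 14.1 CPM (SD, n = 5 each), a rise of 0.07 on the log2 scale (adjusted p = 0.00909) with groups that overlapped. Without siRNA replicate 1 it did not pass (adjusted p = 0.0530).

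Angptl4, a secreted inhibitor of lipoprotein lipase that has the angiopoietin fold but is no Tie2 ligand (Entrez gene 57875, chromosome 17, 33774900 to 33781575, minus strand), went from near absence to a low level. Its estimated reads were 10, 5, 15, 8 and 8 in control libraries 1 to 5. In siRNA libraries 1 to 5 they were 81, 68, 64, 100 and 89. Every siRNA library had several times the reads of any control library. On the CPM scale this was 0.512 ± 0.206 against 4.41 ± 0.816 (SD, n = 5 each), an 8.61-fold difference. On the log2 scale the difference was 3.09 (SE 0.196), which 7 tested genes exceeded. It is given as a description without a p-value, since the filter kept the gene through its siRNA counts. With so few control reads its size is less certain than that of Angpt2, and it ran from 2.94 to 3.33 under the other settings tried.

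**Figure D2:**
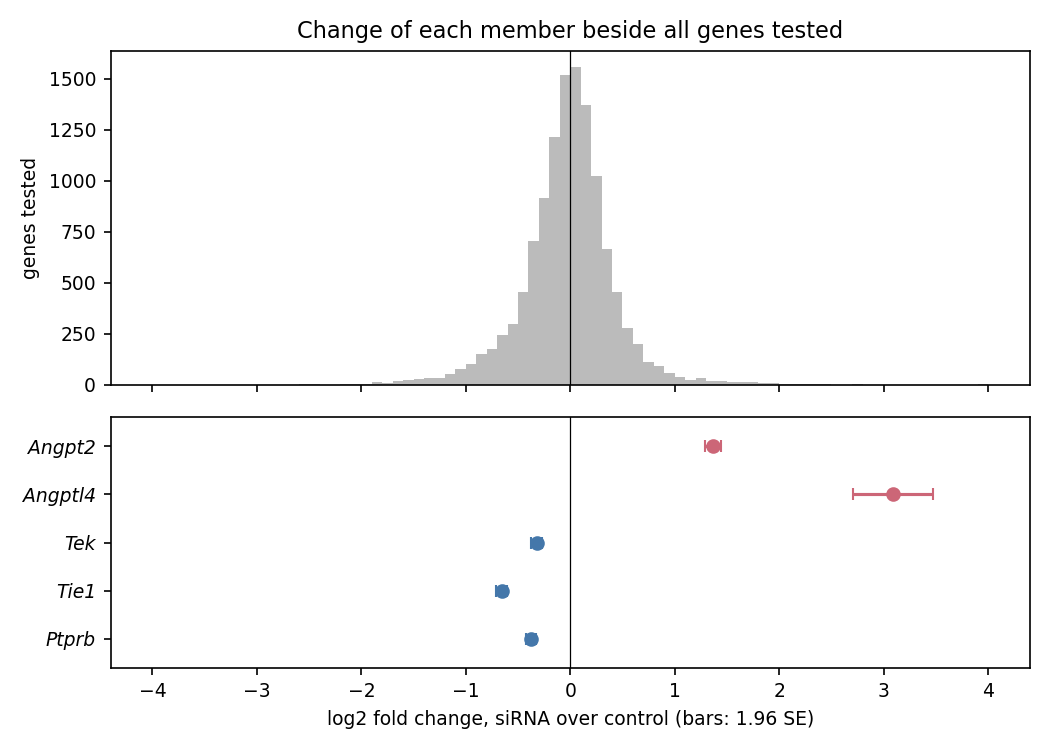
Top, the number of tested genes by log2 fold change (siRNA over control) in bins of 0.1, with values beyond 4 in the end bins. Bottom, the log2 fold changes of the 5 tested members on the same axis with bars for the 95% interval. Angptl4 (3.09) and Angpt2 (1.37) lie in the right tail, and Tek (−0.32) and Ptprb (−0.38) within the main body of genes.

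To compare levels between genes, CPM was divided by the length of each gene's merged annotated exons, which gives CPM per kilobase. In control cells the order was Tie1 at 296 ± 9.06, Angpt2 at 113 ± 5.68, Tek at 27.4 ± 0.414, Ptprb at 15.6 ± 0.365, Angptl4 at 0.145 ± 0.0581 and Angpt1 at 0.0835 ± 0.0336 CPM per kilobase (SD, n = 5). The libraries of Angptl4 and Angpt1 overlapped, and all other neighbours in this order were apart. Tie1 was an abundant transcript, with 82 of 11947 tested genes of known length above it, whereas 1962 genes were above Tek. In siRNA cells Angpt2 stood first, at 291 ± 15.3 CPM per kilobase, above Tie1 at 188 ± 7.75. Angpt2 was above Tie1 in 5 of 5 siRNA libraries and below it in 5 of 5 control libraries. Angptl4 moved to 1.246 ± 0.230 CPM per kilobase and Angpt1 to 0.0401 ± 0.00880, so that these no longer overlapped.

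**Figure D3:**
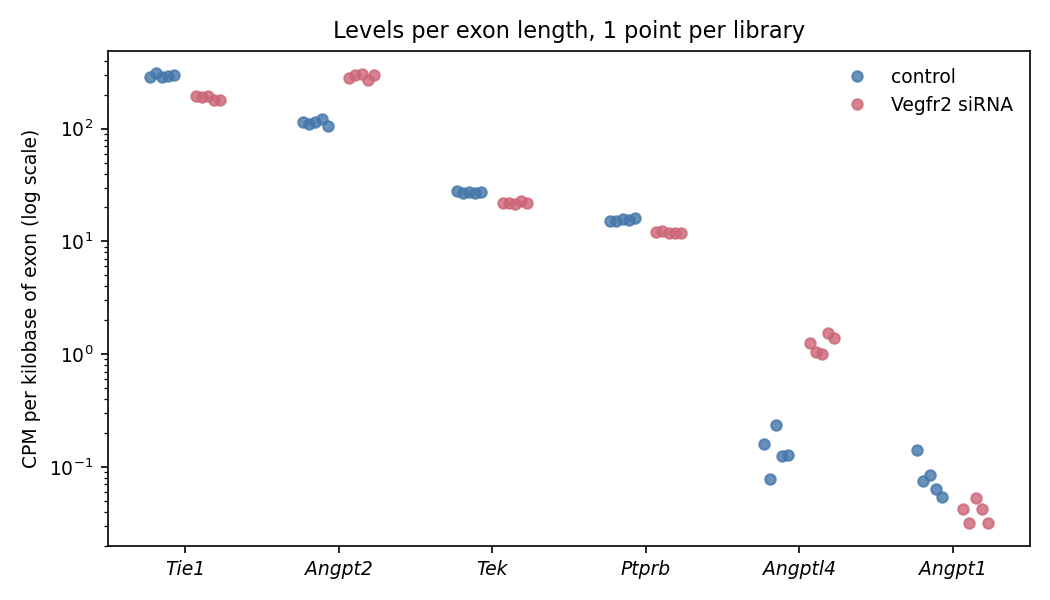
Level of each gene per kilobase of merged exon, on a log axis, with 1 point per library in control (blue) and Vegfr2 siRNA (red) cells. Angpt2 crosses Tie1, from 113 against 296 in control to 291 against 188 in siRNA cells, and Angpt1 and Angptl4 lie more than a log10 unit below Ptprb in control cells.

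Ratios within a library do not depend on how libraries are scaled, and 3 of them were tested with an exact two-sided permutation test on log2 ratios of counts, adjusted over the 3. Tie1 per Tek fell from 10.8 ± 0.462 to 8.56 ± 0.530 on the scale of counts per kilobase (SD, n = 5 each). The 5 control libraries spanned 10.4 to 11.5 and the siRNA libraries 7.91 to 9.17, with no overlap. The difference of −0.34 in the log2 ratio had an exact permutation p = 0.00794 (adjusted p = 0.0119), so Tie1 lost more than Tek did. Angpt2 per Tek rose from 4.12 ± 0.233 to 13.3 ± 0.940 (SD, n = 5 each), a 3.23-fold shift of the ligand against its receptor. Angpt2 lay higher and Tek lower in every siRNA library than in any control library, so these ratios could not overlap. Their exact permutation p = 0.00794 (adjusted p = 0.0119) was thereby fixed and adds nothing to the values of the 2 genes. Its place among the 3 adjusted together also lowers the adjusted p of Tie1 per Tek. Ptprb per Tek was at 0.568 ± 0.0135 in control and 0.547 ± 0.0171 in siRNA libraries (SD, n = 5 each). These groups overlapped, and the difference of −0.05 did not pass (exact permutation p = 0.0714, also when adjusted), although it did without control replicate 1 (adjusted p = 0.0159). Angpt2 per Tie1, a ratio added after the values were seen and not tested, went from 0.382 ± 0.0257 to 1.55 ± 0.0854. Angpt2 per Angpt1 rests on few Angpt1 reads: with 0.5 added to each count it spanned 785 to 1783 in control and 5280 to 8160 in siRNA libraries, per kilobase.

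**Figure D4:**
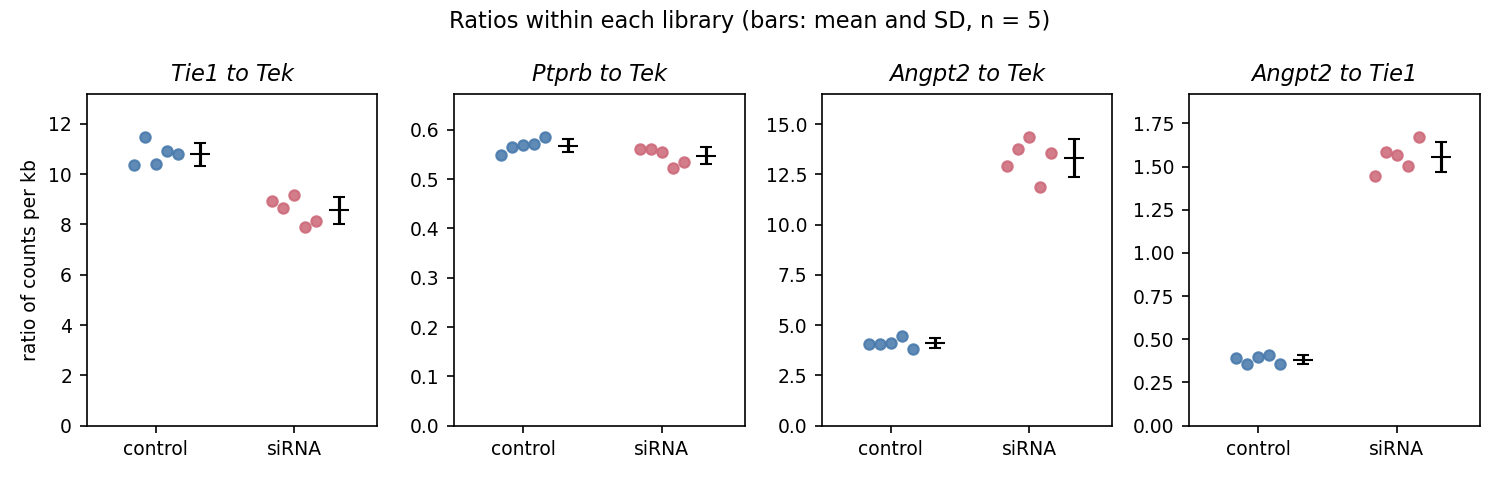
Ratio of counts per kilobase of exon between pairs of genes within each library, with the mean and SD of 5 libraries in black and axes from 0. Tie1 to Tek falls from 10.8 to 8.56, Angpt2 to Tek rises from 4.12 to 13.3 and Angpt2 to Tie1 from 0.382 to 1.55, while the libraries of Ptprb to Tek overlap.

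The genes around these members were grouped in 6 lists by role. Of 15 tested adaptors and cytoplasmic partners of Tie2, 5 rose, 6 fell and 4 did not pass. Over all tested genes 36.1% rose and 35.2% fell, so these counts were near the background. The list's median log2 fold change was −0.03, beside −0.0019 for all tested genes. Akt1, the kinase that carries the survival signal of Tie2, rose by 0.36 on the log2 scale. The adaptor genes Shc1 (−0.33) and Nck1 (−0.28) and the PI3K regulatory subunit gene Pik3r2 (−0.34) fell. Dok2, the docking protein recruited by Tie2, was under the filter with 13 reads in the control and 22 in the siRNA group.

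Among 12 proteases, integrins and junction partners of the receptors, 6 rose, 4 fell and 2 did not pass (median 0.05). The shares over all tested genes were 36.1% higher and 35.2% lower. Mmp14, a membrane protease that can cut Tie2, rose from 705 ± 16.3 to 910.5 ± 18.1 CPM, and the integrin gene Itgb1 rose by 0.33 on the log2 scale. Adam10, a membrane protease that sheds many surface proteins, fell from 1074 ± 32.2 to 820 ± 18.0 CPM (SD, n = 5 each). Cdh5, the gene of VE-cadherin, which VE-PTP also acts on, was at 1444 ± 25.9 and 1403 ± 29.4 CPM and did not pass (−0.04, adjusted p = 0.0991), although it did with upper-quartile scaling, with DESeq2 and at a mean of at least 5 CPM (adjusted p from 0.0189 to 0.0464).

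FOXO1 is a transcription factor that AKT holds in check. Of 15 tested FOXO genes and FOXO targets, 2 rose, 10 fell and 3 did not pass (median −0.22), beside 36.1% higher and 35.2% lower over all tested genes. Sesn1, a stress-induced inhibitor of mTORC1, fell by 1.12, the cell cycle inhibitor gene Cdkn1b by 0.71 and Foxo3 itself by 0.56 on the log2 scale. Irs2, an adaptor of the insulin receptor, rose from 7.24 ± 0.386 to 27.2 ± 2.11 CPM (SD, n = 5 each). Foxo1, named after its values were seen, was at 114 ± 2.58 and 119 ± 1.096 CPM, with overlapping groups. Its difference of 0.07 on the log2 scale passed (adjusted p = 0.0208) but did not with upper-quartile scaling (0.05, adjusted p = 0.0730).

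Of 15 tested transcription factors linked with the Tie and angiopoietin genes, 4 rose, 8 fell and 3 did not pass (median −0.10). The shares over all tested genes were 36.1% higher and 35.2% lower. The ETS factor genes Erg (−0.48), Fli1 (−0.36) and Ets1 (−0.31) fell, as did Prox1 (−0.26), the lymphatic fate factor. Erg went from 238 ± 8.90 to 171 ± 4.96 CPM (SD, n = 5 each). Among the other ETS genes of the list, Ets2 fell by 0.10 on the log2 scale, while Elf1 (−0.03, adjusted p = 0.313) and Elf2 (−0.04, adjusted p = 0.180) did not pass. Of factors named after their values were seen, Epas1, which encodes the hypoxia factor HIF2-alpha, fell by 1.28 on the log2 scale. The valve factor gene Foxc2, also so named, fell by 0.51, while Hif1a, likewise, rose by 0.17. The part of these factors in the values of the Tie and angiopoietin genes was not tested.

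The angiopoietin-like family held 3 tested genes, of which Angptl4 and Angptl2 rose and Angptl6 did not pass. Over all tested genes 36.1% rose and 35.2% fell, and with only 3 genes the count is a description. As said above, Angptl4 passed the filter through the siRNA libraries alone, so its call could only have been a rise. Angptl2, a secreted protein tied to inflammation, rose from 9.25 ± 0.507 to 14.2 ± 1.296 CPM (SD, n = 5 each), a log2 fold change of 0.61. The value for Angptl6 was −0.10 on the log2 scale (adjusted p = 0.706), and it took either sign under the other settings (−0.22 to 0.13). Angptl1, Angptl7 and Angptl8 were under the filter, with at most 18 reads in a group.

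PPARs are nuclear receptors that bind fatty acids and control genes of lipid use, Angptl4 among them. Of 13 tested PPAR genes, PPAR targets and lipoprotein lipase genes other than Angptl4, 0 rose, 10 fell and 3 did not pass (median −0.48), beside 36.1% higher and 35.2% lower over all tested genes. The part of PPAR in the Angptl4 values was not tested. The fatty acid binding protein gene Fabp4 fell from 307 ± 14.5 to 195 ± 8.19 CPM (SD, n = 5 each). Lpl, which encodes the lipase that Angptl4 inhibits, fell by 1.27 on the log2 scale from a low level of 7.46 CPM. Gpihbp1, which anchors that lipase to the endothelium, fell from 87.6 ± 2.89 to 40.8 ± 3.61 CPM (SD, n = 5 each).

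**Figure D5:**
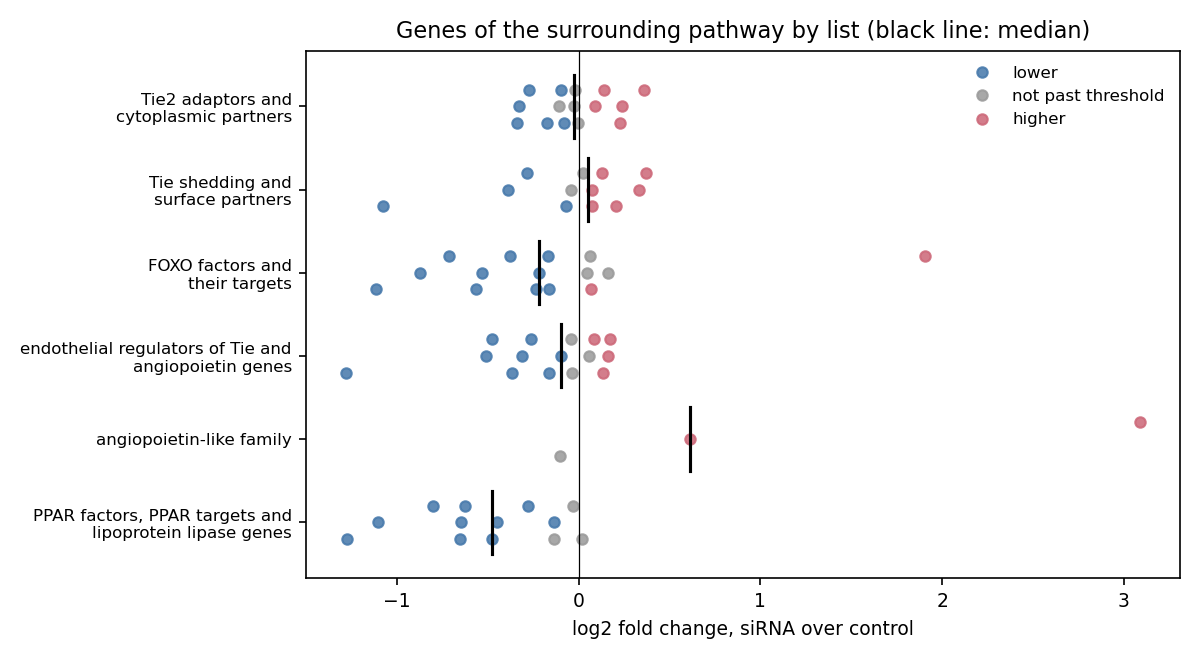
Log2 fold change (siRNA over control) of each tested gene in the 6 lists, coloured by whether it was higher (red), lower (blue) or not past the threshold (grey), with the list's median as a black line and points spread vertically for legibility. The FOXO and PPAR lists have medians of −0.22 and −0.48, with Irs2 (1.91) and Angptl4 (3.09) as the points farthest to the right in the FOXO and angiopoietin-like lists.

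For each tested member, the 3 tested genes of at least 5 CPM whose log2 CPM followed it most closely over the 10 libraries were found by Pearson's r. For Angpt2 they were the tRNA synthetase genes Cars and Aars and the phosphatase scaffold gene Ppp2r1a (r = 0.998 to 0.999). Tie1 was followed by Cyb5r3, Flt4 and Lamb2 (each r = 0.998), of which Flt4 encodes the lymphatic VEGF receptor VEGFR3. Tek was followed by Tia1, Lacc1 and Cyyr1 (r = 0.994 to 0.996), Ptprb by Mef2c, Pfkm and Crebrf (r = 0.996 to 0.998) and Angptl4 by Mtf2, Ergic2 and Alg9 (r = 0.995). Between 2013 and 2383 of the 10323 genes compared had an r over 0.9 with Tek, Tie1, Ptprb or Angpt2, since all points share the difference between the 2 groups, and these names are a description only.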

How the data were processed

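Poly(A) RNA was captured with oligo(dT) beads, fragmented and sequenced, per the labels' protocols. The authors deposited 1 estimated count per gene and library, not normalized, with 10.5% to 11.3% of genes per library at a fractional value. Per the submitters' processing notes the tools were RSEM 1.3.1, HISAT2 2.2.1 and Bowtie2 2.4.5 and the genome GRCm38.p6. What each tool did, the annotation and the strand setting: not given in the sources used here. None of the 6 genes had a fractional value.

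After rounding, edgeR 4.0.16 (R 4.3.3) was run on the counts: filterByExpr at a minimum count of 10, which kept 12161 genes, TMM scaling, the quasi-likelihood F test (robust, 1 group term) and Benjamini-Hochberg adjustment over all genes tested with a threshold of 0.05. The SE is the log2 fold change divided by the square root of F. Alternatives were DESeq2 1.42.0, limma-voom (limma 3.58.1), the scalings RLE and upper quartile, a replicate block, leaving out each library, keeping all genes, and keeping those averaging 5 CPM or more. Positions came from the RefSeq gene table (16202 IDs matched) and exon lengths from GENCODE M21 (15711 IDs matched). Promoter windows were found for Tek and Tie1. Any 2 libraries of a group differed by more than counting noise (chi-square per degree of freedom 1.50 to 3.47). Separate preparations from a single culture could differ so too, and separate cultures are therefore not shown. The methods were tested on simulated data in which few genes changed. That differs from these data, so the test does not cover scaling when most genes change.

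The members and lists were chosen with earlier results of these data known. The genes named are the members, Kdr, up to 4 tested genes per list with the smallest adjusted p, and 3 genes most correlated with each tested member; any other gene is a marker, an ETS gene or a gene without a call from the lists, or is said to be named after its values were seen. One gene that this rule names is not reported here.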

Additional observations from a re-analysis of the deposited data

Results flagged for a closer look

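In 76 groups of 5 libraries checked for a sample far from the others, 6 had one, where chance flags about 1 group in 20. None of the 6 is among the angiopoietin and Tie members. Of them 4 concern siRNA replicate 5, which was the lowest library for Shc1 (178 CPM, others 185 to 187), Itga9 (27.5 CPM, others 31.7 to 32.8), Cdkn1b (75.9 CPM, others 81.9 to 84.2) and Prox1 (384 CPM, others 406 to 414). The low value of siRNA replicate 5 goes in the direction of the falls reported for these genes, and all 4 kept their calls without that library. Angptl6 was at 1.20 CPM in siRNA replicate 1 and at 0.825 to 0.933 CPM in the other siRNA libraries. Elf1 was at 73.5 CPM in siRNA replicate 3 and at 76.1 to 77.0 CPM in the other siRNA libraries.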

How the results depend on the processing

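Over 17 alternatives (16 for Angptl4 and Angptl6, which fell under a mean of 5 CPM), no call changed direction among the 37 tested genes examined (members, Kdr, genes of the lists named by the rule, and list genes added after their values were seen), and 622 of 627 values kept their side of the threshold. The exceptions were 2 calls lost (Foxo1 with upper-quartile scaling, Pear1 without siRNA replicate 1) and 3 gained (Cdh5). Tek ran from −0.34 to −0.31, Tie1 from −0.67 to −0.64, Ptprb from −0.39 to −0.36 and Angpt2 from 1.35 to 1.40 on the log2 scale. The count of changed genes ran from 7753 of 10325 tested (a mean of at least 5 CPM) to 8956 of 16226 tested (no filter). It ran from 8437 to 8549 when 1 library was left out. With a mean of at least 5 CPM, 1 angiopoietin-like gene was tested and called, and 4 angiopoietin and Tie members, since Angptl4 was not tested. With no filter 6 members were called, Angpt1 (−1.03) being added. Same-numbered libraries did not deviate together (r from −0.07 to 0.02). No sign of pairing by number was thus seen, but a small shared effect could have been missed. With the replicate block, 8537 genes changed. The blocked log2 ratio differences stayed at −0.34 for Tie1 to Tek and 1.69 for Angpt2 to Tek, and an exact sign-flip test over 5 pairs, which cannot go below 0.0625, gave an adjusted p of 0.0938 for both. For Angpt2 to Tek this outcome too was fixed by the values of the 2 genes. Without single libraries these differences ran from −0.36 to −0.31 and from 1.66 to 1.73, that of Ptprb to Tek from −0.0666 to −0.0382, and that of Angpt2 to Angpt1 from 2.10 to 2.39. The Ptprb to Tek difference passed without control replicate 1 (−0.0666, adjusted p = 0.0159). Per kilobase of the longest transcript, control levels were 344 for Tie1 and 17.4 for Ptprb. Angpt1, with at most 13 reads in a library, and Angptl4, with at most 15 in a control library, are limited by depth.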
